A study of Mus musculus with 16 samples.

Results

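The endoplasmic reticulum stress genes described here encode chaperones, folding enzymes and regulators that respond when unfolded proteins build up in the endoplasmic reticulum. They are Hspa5, Hsp90b1, Calr, Dnajc3, Pdia4, Creld2, Herpud1, Xbp1, Atf4 and Ddit3. They were found by gene symbol among genes of the unfolded protein response, with the cytosolic heat shock genes left out. They make up 10 of the 9846 named genes tested and are measured by 14 of 20355 probes. All 10 passed the filter on missing values and were measured in all 4 mice. They were chosen partly on their ratios and their spread between mice, which were already known when the list was drawn up. Those values are therefore given as a description and support nothing beyond it.

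The samples were kidneys of 4 males with the label MFP2-/-, aged 15 weeks. Their RNA was measured on two-colour cDNA arrays against 1 pool of RNA from 5 wild-type males of the same age, labelled wt (Swiss strain SWR/Ola Hsd). MFP2 is the peroxisomal multifunctional protein 2, the product of Hsd17b4, an enzyme with which peroxisomes shorten very long and branched fatty acids. The labels give no other allele and no treatment, and name no strain for the mutants besides the genotype. Each mouse had 4 arrays, 2 with the mutant RNA in Cy5 and 2 with it in Cy3. For means over mice, their SDs and their main test against 0, n is 4 mice. The tests between mice and of the dye, a further fit of all arrays and the correlations used single arrays, which come from the same 4 mice. Every value is a log2 ratio of a mouse over the pool, in which 0 is the median spot of an array. The pool stands for the wild type as 1 sample, so how far wild-type animals differ from each other is unknown here. In whole kidney RNA, fewer cells of a type and less RNA per cell cannot be told apart.

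The endoplasmic reticulum folds secreted and membrane proteins. When its folding capacity is exceeded, the sensors IRE1, PERK and ATF6 start the unfolded protein response: IRE1 splices the Xbp1 mRNA, PERK slows translation and favours that of ATF4, and ATF6 is cut to release a transcription factor. These factors raise chaperones, folding enzymes and parts of the degradation pathway, and a lasting response induces Ddit3, which encodes CHOP. In the kidney, tubule cells with a heavy load of membrane transporters are among the cells in which this response has been studied.

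With the direction and log base of the deposited ratios not given in the sources used here, mutant over pool on a log2 scale was inferred, the direction from how the most extreme spots turned with the dyes on the 16 arrays. Repeat arrays of the same mouse and orientation correlated with a median Spearman rho of 0.34 across probes (range 0.12 to 0.50 over 8 pairs), and those of a mouse under opposite dyes with -0.16. Arrays of different mice had a median of 0.18 under the same orientation and -0.10 under opposite ones. An array was thus closer to other mice under the same dye than to its own mouse under the other. The targeted gene did not settle the labels. For mice 1 to 4, Hsd17b4 probe 4590 read -1.69, -1.50, -0.10 and -0.34, and probe 1446 read 0.02, 0.83, 0.34 and 0.52. Where these probes lie relative to the mutation is unknown here. Over all rows, limma called 0 of 16140 for mutant over pool at an adjusted p under 0.05 (1459 at an unadjusted p under 0.05). Since a ratio carries no level, the labelled tissue could not be checked by the presence of its markers.

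Several of these genes are textbook targets of ATF6 and XBP1 through the endoplasmic reticulum stress element (ERSE), and the matches are shown as a description of sequence. The genes were chosen as members of the response that acts through this element. Their share of matches is therefore tied to that choice and is no independent result. The element was searched as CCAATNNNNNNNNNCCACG on both strands of the 250 bases before each gene's start in RefSeq (GRCm38.p6), where all 10 genes had an entry. It was present in 5 of the 10, Hspa5, Hsp90b1, Calr, Dnajc3 and Creld2, against 0.113% of all 32851 promoters (37) and 0.189% of the 7948 tested genes with a promoter (15). The related ERSE-II, searched as ATTGGNCCACG, was present in Herpud1 alone among the 10, against 0.0304% of all promoters (10). Each line gives a stretch 5′ to 3′ on the strand of the gene, with the match in capitals and 15 bases on either side. A match that starts with CGTGG is the element on the other strand.
Hspa5: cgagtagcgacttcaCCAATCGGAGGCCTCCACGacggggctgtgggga
Hsp90b1, nearer site: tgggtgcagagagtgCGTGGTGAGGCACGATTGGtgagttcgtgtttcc
Hsp90b1, farther site: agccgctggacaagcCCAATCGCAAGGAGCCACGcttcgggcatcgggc
Calr: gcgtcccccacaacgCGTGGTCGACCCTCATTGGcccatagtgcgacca
Dnajc3: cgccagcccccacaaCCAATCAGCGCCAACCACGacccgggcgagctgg
Creld2: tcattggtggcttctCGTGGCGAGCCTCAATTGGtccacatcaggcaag
Herpud1, ERSE-II: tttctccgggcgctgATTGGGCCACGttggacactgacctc

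The stretches lie at chr2:34772010-34772058 (plus strand, Hspa5), chr10:86705518-86705566 and chr10:86705623-86705671 (minus strand, Hsp90b1), chr8:84847060-84847108 (minus strand, Calr), chr14:118937812-118937860 (plus strand, Dnajc3), chr15:88819505-88819553 (plus strand, Creld2) and chr8:94386362-94386402 (plus strand, Herpud1), all upstream of the annotated start. The match ended 46 bases before the start of Hspa5, 88 and 193 before that of Hsp90b1, 143 before that of Calr, 86 before that of Dnajc3, 107 before that of Creld2 and 41 before that of Herpud1. The shorter letters inside the element were far more common. CCAAT was in 33.8% of all promoters and in 9 of the 10 genes, and CCACG in 28.3% and in 7 of the 10. The letters TGACGTGG, the core of the unfolded protein response element, were in 0.563% of promoters and in 0 of the 10. Pdia4, Xbp1, Atf4 and Ddit3 had no match to ERSE or ERSE-II in this window. These are matches of letters, and no binding was measured here.

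Among the chaperones, Hspa5 (chromosome 2, 34772090 to 34776529), which encodes BiP, the main Hsp70 of the endoplasmic reticulum and the brake on its sensors, differed widely from mouse to mouse. Mice 1 to 4 had log2 ratios of -0.63, 0.28, -0.71 and -0.16, and the mean was -0.30 ± 0.46 (SD, n = 4). With the mutant in Cy5 the 4 mice had -0.38, 0.38, -0.40 and 0.04, and with the mutant in Cy3 they had -0.88, 0.18, -1.01 and -0.35. Mice 1 and 3 were below mouse 4 and mouse 4 below mouse 2 in both orientations, while the arrays with the mutant in Cy3 were lower in every mouse.

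Hsp90b1 (chromosome 10, 86690841 to 86705444), the Hsp90 of the endoplasmic reticulum, had -0.58, 0.30, -0.32 and 0.06 in mice 1 to 4, a mean of -0.14 ± 0.39 (SD, n = 4). Calr (chromosome 8, 84842088 to 84846931), the lectin chaperone calreticulin, which also stores calcium, had -0.25, 0.22, -0.40 and -0.02, a mean of -0.11 ± 0.27. In these means over both dyes, the order of the mice was the one seen for Hspa5 except that mouse 1 was the lowest for Hsp90b1. The dyes differed for Calr, with 0.195, 0.18, -0.30 and 0.15 with the mutant in Cy5 and -0.70, 0.26, -0.50 and -0.20 with it in Cy3. Mouse 1 was thus its highest under one dye and its lowest under the other. For Hsp90b1 mouse 1 was the lowest under both dyes, but mouse 4 was the highest with the mutant in Cy5 (0.33). Dnajc3 (chromosome 14, 118937932 to 118981702), a co-chaperone of BiP also known as an inhibitor of eIF2alpha kinases, had -0.29, 0.28, -0.12 and 0.20, a mean of 0.02 ± 0.27. Its 2 probes ordered mice 1 and 3 below mice 2 and 4 alike, with -0.23, 0.44, -0.12 and 0.17 for probe 12230 and -0.35, 0.12, -0.13 and 0.24 for probe 13381.

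Pdia4 (chromosome 6, 47796141 to 47813512), a disulfide isomerase, had -0.07, 0.15, -0.07 and 0.06, a mean of 0.02 ± 0.11 (SD, n = 4), but its 3 probes disagreed. Probe 482 had -0.06, 0.58, -0.06 and 0.30, and probe 18186 had -0.03, 0.23, -0.18 and 0.23. Probe 7498 turned mice 2 and 4 the other way, with -0.13, -0.38, 0.03 and -0.35. The small spread of the gene's value is therefore a mean over probes that moved in opposite directions, and the probes alone spanned more.

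Creld2 (chromosome 15, 88819646 to 88826681), a disulfide isomerase-like protein that is induced by stress of the endoplasmic reticulum, had the widest spread of the 10. On the 4 arrays of each mouse, those with the mutant in Cy5 first, its log2 ratio was -0.41, -0.65, -1.03 and -0.75 in mouse 1, and 0.28, 0.30, 0.54 and 0.56 in mouse 2. Mouse 3 had -0.43, -0.68, -0.60 and -0.65, and mouse 4 had 0.09, 0.22, 0.37 and -0.00. No array of mice 1 and 3 overlapped any array of mice 2 and 4. This grouping of the mice was made after the values were seen, and arrays of a mouse share its RNA. How many of all rows divide in this way was not counted. The means per mouse were -0.71, 0.42, -0.59 and 0.17, and the mean over mice was -0.18 ± 0.56 (SD, n = 4). The SD between mice exceeded the size of that mean.

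Herpud1 (chromosome 8, 94386429 to 94395371), a membrane protein of the degradation machinery, had -0.42, -0.10, -0.54 and -0.22 in mice 1 to 4. Its mean of -0.32 ± 0.20 (SD, n = 4) was the lowest of the 10, and it was below 0 in every mouse. Both rest on the inferred direction: read as Cy5 over Cy3 its mean would be 0.17, and Ddit3 (-0.11) and Xbp1 (-0.10) would be the lowest. Mice 1 and 3 were again the lowest. The 4 values with the mutant in Cy5 were -0.03, -0.05, -0.46 and -0.08, so that mouse 3 alone was far from 0 there, and those with the mutant in Cy3 were -0.81, -0.14, -0.62 and -0.37.

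Of the 3 transcription factors, Ddit3 ordered the mice as Hsp90b1 did, while Xbp1 and Atf4 each had another order. Xbp1 (chromosome 11, 5520641 to 5525993), whose splicing these ratios do not tell apart from its level, had -0.31, 0.09, -0.06 and 0.20, a mean of -0.02 ± 0.22 (SD, n = 4), with mouse 4 the highest. Atf4 (chromosome 15, 80255184 to 80257545), which is controlled mostly at translation, had -0.03, -0.16, -0.25 and -0.19, a mean of -0.16 ± 0.09. It was below 0 in every mouse, and mouse 1, lowest for most of the other genes, was its highest. Its probe 11715 had a mean of -0.25 and its probe 18438 one of -0.06, and the second was above 0 in mice 1 and 2. Ddit3 (chromosome 10, 127290793 to 127296291), the factor CHOP that promotes cell death, had -0.33, 0.08, -0.11 and -0.04, a mean of -0.10 ± 0.17. Its repeat arrays differed by an SD of 0.60, more than its 4 mice did, and mouse 2 had 1.35 and -0.66 on its repeats with the mutant in Cy5.

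**Figure D1:**
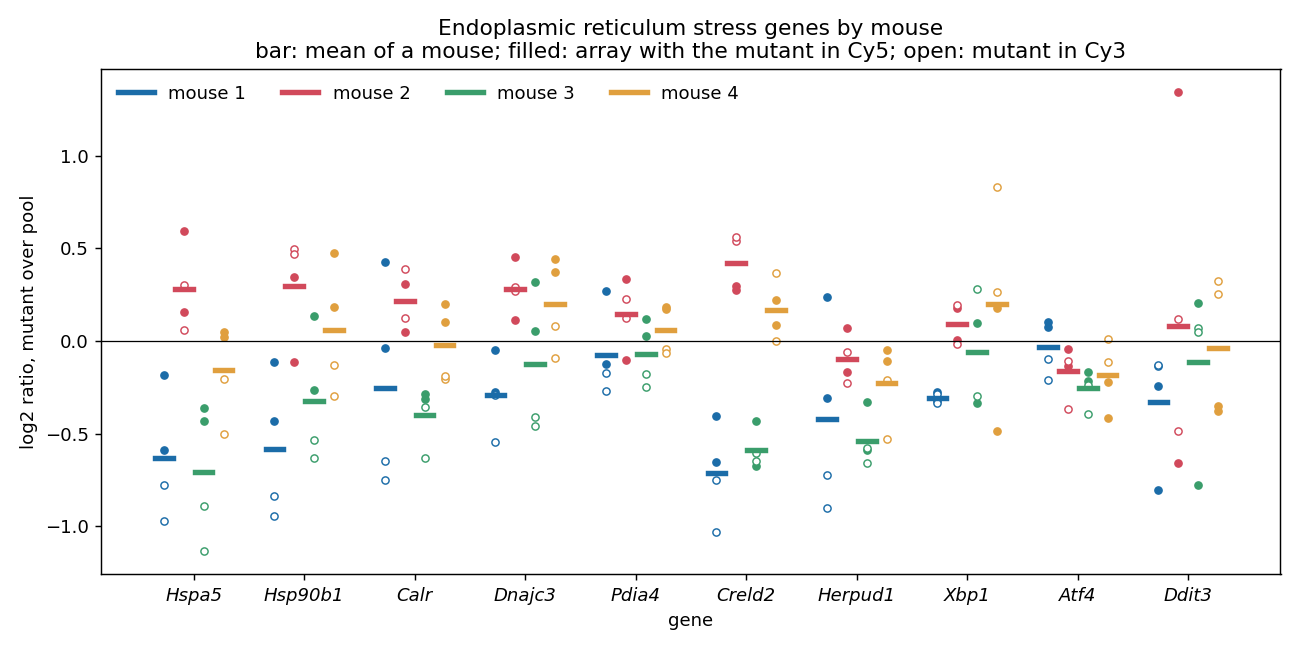
Log2 ratio of mutant over pool (vertical axis) for the 10 genes (horizontal axis) in the 4 mice, with 1 point per array and a bar at the mean of each mouse; filled points have the mutant in Cy5 and open points have it in Cy3. For Creld2 every array of mice 1 and 3 is below every array of mice 2 and 4. This grouping was made after the values were seen, and how many of all rows divide in this way was not counted. The arrays of Ddit3 and Xbp1 overlap between mice.

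Across the 10 genes, 8 had a mean below 0 and 2 above it, and the median of the means was -0.12, against 0.00 over all 16140 rows. For mutant over pool limma called 0 of the 10 at an adjusted p under 0.05, where percent called over all rows was 0%; at an unadjusted p under 0.05 it called 2, Herpud1 and Atf4, against 9.04% of all rows. With all arrays entered and the mouse as a random block, limma called Herpud1 (adjusted p = 0.036) among 221 rows; that fit takes its spread from arrays as well as mice. The median of the 10 was -0.19 without mouse 2 and -0.01 without mouse 1, and 10 and 6 of them were then below 0. Over mice 1 and 2 alone, the ones with the lower Hsd17b4 probe, it was -0.12. If the deposited values were read as Cy5 over Cy3 instead, the median would be 0.13 with 2 of the 10 below 0.

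The means per mouse divided into a low and a high pair. In mouse 1, 0 of the 10 genes were above 0, in mouse 2 there were 8, in mouse 3 again 0 and in mouse 4 there were 5, while over all rows 51.5%, 48.0%, 50.7% and 48.0% were. Their medians were -0.32, 0.18, -0.29 and 0.02 in mice 1 to 4, against 0.01, -0.01, 0.00 and -0.01 over all rows. Mouse 1 was the lowest for 6 of the genes and mouse 3 for 4, and mouse 2 was the highest for 8, the others being Atf4 in mouse 1 and Xbp1 in mouse 4. Over all rows measured in every mouse, mouse 1 was the lowest in 24.7% and mouse 3 in 23.5%, and mouse 2 was the highest in 31%. The median SD between mice was 0.24 for the 10 genes and 0.15 over all rows, whereas the median SD between repeat arrays was 0.18 and 0.26. Creld2, Hspa5 and Hsp90b1 had SDs between mice at percentiles 96.1, 93.9 and 91.4 of all rows, and Atf4 at 22.3.

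The F-test of limma for a difference between mice, whose error is the spread between arrays, called 2 of the 10 genes, Creld2 and Hspa5, where percent called over all 15856 rows was 0.189% (30 rows). The spread between mice was in view when the genes were listed, so nothing is read from this count. Of the 30 rows, 23 had mouse 1 the lowest and 20 had mouse 2 the highest, against 24.7% and 31% of all rows. Without mouse 4, Creld2 was still called (limma adjusted p = 0.043), and without mouse 1, 2 or 3 it was not (0.051, 0.084 and 0.062). Hspa5 was not called with any single mouse left out (0.081 to 0.346). Read as Cy5 over Cy3, neither was called (limma adjusted p = 0.976 and 0.986). Arrays of a mouse share its RNA, so the test speaks of these 4 RNA samples; what set them apart, from the animals to the preparation of the RNA, cannot be told apart.

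**Figure D2:**
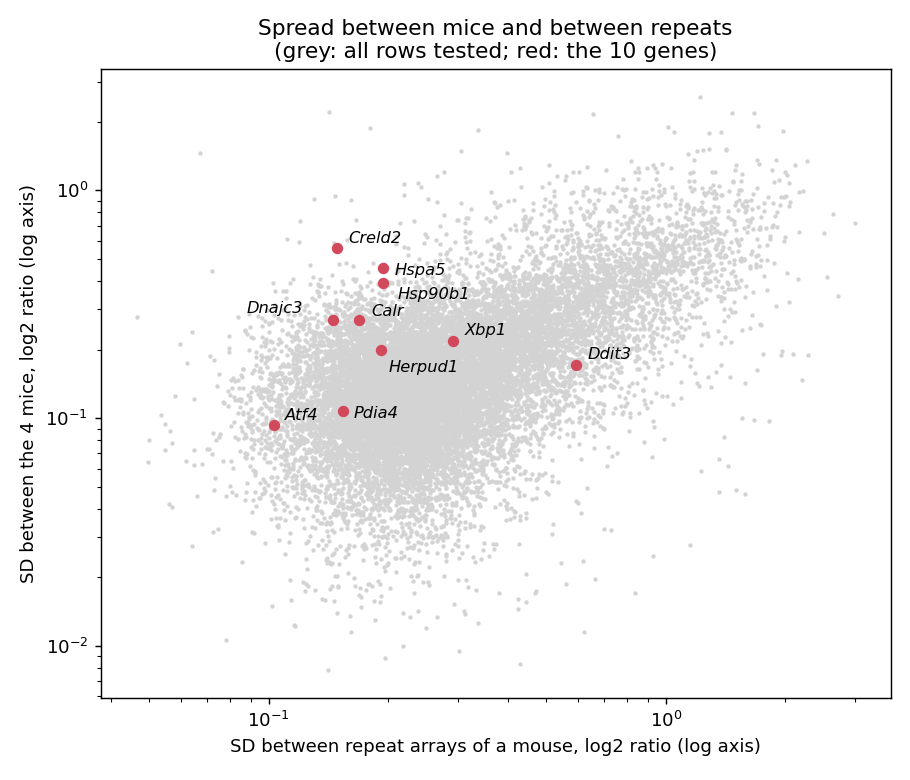
SD of the log2 ratio between the 4 mice (vertical, log axis) against the SD between repeat arrays of a mouse (horizontal, log axis), with all rows tested in grey and the 10 genes in red. Creld2, Hspa5 and Hsp90b1 lie high at a small repeat SD (0.15 to 0.19), and Ddit3 lies far to the right (0.60).

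The dye orientation is a measure that played no role in the choice of the genes. Limma called 1 of the 10 for it, Hspa5, where percent called was 8.4% (1332 of 15856 rows). Hspa5 averaged -0.09 where the mutant was in Cy5 and -0.51 where it was in Cy3, a difference of 0.42 (limma adjusted p = 0.030). Differences of 0.32 to 0.34 in the same direction did not pass for Dnajc3 (0.058), Herpud1 (0.086), Calr (0.102) and Hsp90b1 (0.144). Creld2 differed by 0.04 (0.838). The call of Hspa5 was kept without mouse 2 (limma adjusted p = 0.015), when Hsp90b1, Dnajc3 and Calr were called too, among 2701 of all rows. It was lost without mouse 1, 3 or 4, when 46, 44 and 75 of all rows were called. It was also lost with arrays scaled by their median absolute deviation and in either repeat alone, where 0 of the 10 were called. Of all rows, 1693 were called when scaled, 0 in repeat 1 and 7 in repeat 2. Without centring of the arrays, 6 of the 10 were called, which are Hspa5, Dnajc3, Herpud1, Calr, Pdia4 and Hsp90b1. The calls over all rows rose as well in that setting, from 1332 to 2740.

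The orientations were also compared for how they placed the mice. These counts were not made over all rows, and the genes were listed with their spread between mice known, so nothing is read from them. Of 40 values of a gene in a mouse, 30 lay on the same side of that gene's mean in both orientations. All 4 mice did so for 4 of the 10 genes, Creld2, Hspa5, Hsp90b1 and Pdia4. The lowest mouse was the same under both dyes for 3 genes (Hspa5, Hsp90b1 and Xbp1) and the highest for 2 (Creld2 and Hspa5). Creld2 had -0.53, 0.29, -0.55 and 0.15 with the mutant in Cy5 and -0.89, 0.55, -0.63 and 0.18 with it in Cy3, so that the sign of each mouse was the same under both dyes.

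**Figure D3:**
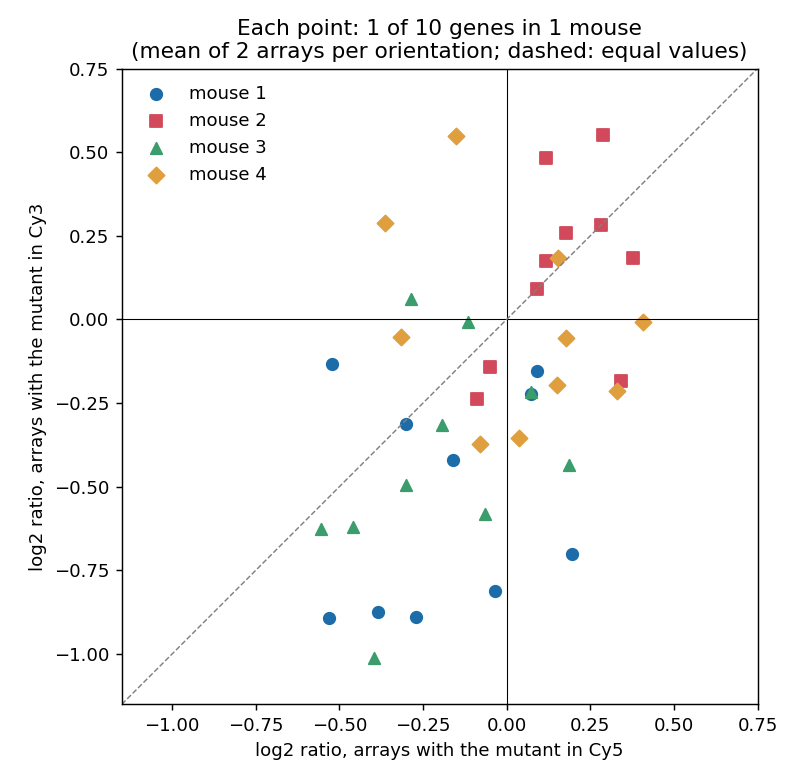
Each point is 1 of the 10 genes in 1 mouse, with its log2 ratio on arrays with the mutant in Cy5 (horizontal) and in Cy3 (vertical), each a mean of 2 arrays; the dashed line marks equal values. Points of mouse 2 lie mostly at the upper right and those of mice 1 and 3 at the lower left. Of the 40 values, 30 are on the same side of their gene's mean in both, a count not made over all rows.

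The genes fell into a block that varied together over the arrays and 3 that did not. After the mean of each orientation was removed, all 21 pairs among Hspa5, Hsp90b1, Calr, Dnajc3, Pdia4, Creld2 and Herpud1, the proteins that work in the endoplasmic reticulum, correlated positively over the 16 arrays, with Pearson's r from 0.62 to 0.93 and a median of 0.79. The highest were Creld2 with Hspa5 (0.93) and Herpud1 with Calr (0.92). The 24 pairs that include Xbp1, Atf4 or Ddit3 ran from -0.28 to 0.43 with a median of 0.10. Xbp1 reached its 0.43 with Creld2. These are descriptions: the 16 arrays come from 4 mice, and share the pool.

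The block was closer on one dye orientation. Over the 8 arrays with the mutant in Cy3 the median r of the 21 pairs was 0.93 (0.88 to 0.97), and over the 8 with it in Cy5 it was 0.56 (0.05 to 0.93). Of these 7 genes, 6 also varied together between repeats of the same RNA: over the 8 differences between repeat arrays their 15 pairs had a median r of 0.78 (0.25 to 0.88). Hsp90b1 did not, with a median of -0.07 over its 6 pairs (-0.49 to 0.04). Repeats share their RNA, so this covariation is not one between mice, and its part in the pattern across mice was not tested. The correlation of each gene with the median of the others was 0.94 for Creld2, 0.91 for Hspa5, 0.79 for Dnajc3, 0.78 for Calr, 0.77 for Hsp90b1, 0.74 for Herpud1 and 0.72 for Pdia4, and it was 0.37 for Xbp1, -0.03 for Ddit3 and -0.12 for Atf4.

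**Figure D4:**
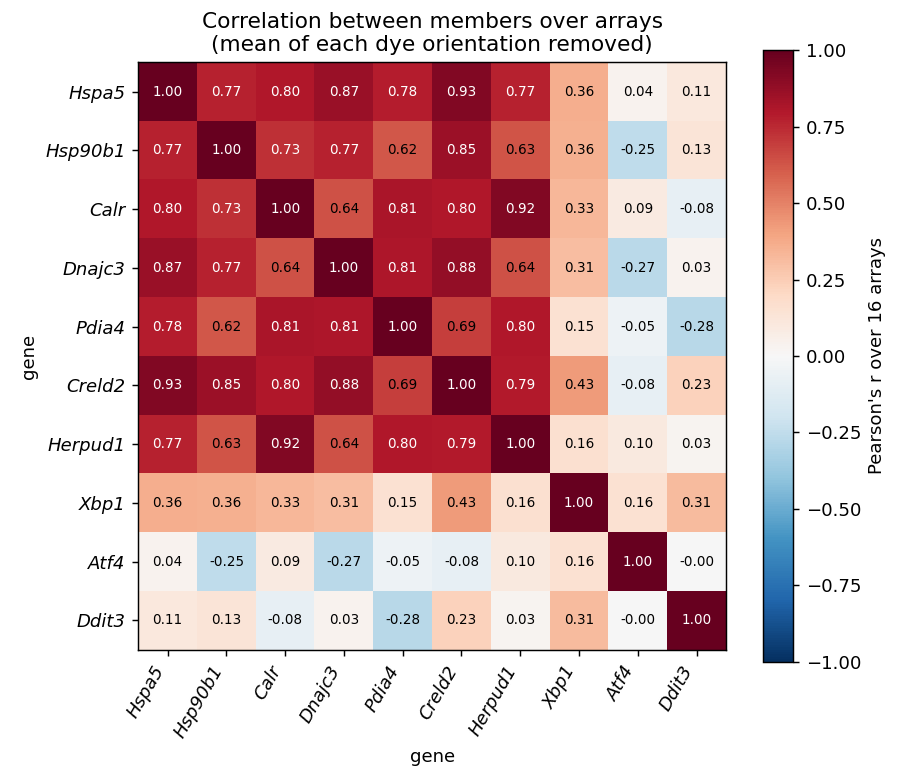
Pearson's r between the 10 genes over 16 arrays after the mean of each dye orientation was removed, in colour from blue (-1) to red (1) with the value in each cell. The 7 proteins of the endoplasmic reticulum form a block from 0.62 to 0.93, and Xbp1, Atf4 and Ddit3 stand outside it.

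Genes outside the list followed the same course. Over the 16 arrays, 12.4% of 9053 other named genes had r over 0.5 with the median of the 10, and the median r was 0.02. The closest were Sparc (0.97), a matrix protein, Timp3 (0.94), an inhibitor of metalloproteinases, Eif3h (0.94), a subunit of a translation initiation factor, Rps14 (0.93), a ribosomal protein, 4931406C07Rik (0.93) and Thoc7 (0.92), of the mRNA export complex. Sparc had -0.42, 0.24, -0.28 and -0.01 in mice 1 to 4, near the medians of the 10 genes. Rps14 kept the order of the mice at another height, with -0.06, 0.85, 0.13 and 0.52. For Creld2 the 6 closest were Sparc (0.95), Eif3h (0.94), Timp3 (0.93), Cox5a (0.92), a subunit of cytochrome oxidase, Rps14 (0.91) and Selenof (0.91), a selenoprotein of the endoplasmic reticulum.

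The rest of the pathway was taken from 8 lists with 209 genes, of which 155 were measured; the lists were written with earlier results of these data known. Limma called 0 of the 155 for mutant over pool (23 at an unadjusted p under 0.05, against 9.04% of all rows) and 0 between mice (24 at an unadjusted p under 0.05, against 11.2% of all rows, or 1776 of 15856). Among sensors and upstream regulators, 5 of 10 were above 0 and 5 below, with a median of 0.04. The ends were Nfe2l1, a stress-responsive factor held in the membrane of the endoplasmic reticulum (0.20 ± 0.14, SD, n = 4), Bak1, a cell death effector (0.12 ± 0.32), Wfs1, a membrane protein of the endoplasmic reticulum (-0.11 ± 0.17), and Creb3l2, a relative of ATF6 (-0.10 ± 0.20). The medians of the 10 regulators in mice 1 to 4 were 0.05, 0.01, 0.03 and -0.03, close to those of all rows.

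Other chaperones of the endoplasmic reticulum were split, with 7 of 14 on each side of 0 and a median of 0.01. Their medians in mice 1 to 4 were -0.07, 0.07, -0.03 and -0.02. Mouse 1 was the lowest for 8 of them and mouse 2 the highest for 7, against 24.7% and 31% of all rows. Mouse 3 was the highest for 6 of them and the lowest for 2, whereas among the 10 genes it was the highest for 0 and the lowest for 4. Canx, the membrane-bound partner of calreticulin, had -0.08, 0.77, 0.07 and 0.10, a mean of 0.21 ± 0.38 (SD, n = 4), and Sdf4, a calcium-binding protein of the secretory route, 0.28 ± 0.20. Serpinh1, the collagen chaperone, had -0.21 ± 0.13, and Manf, a secreted protein induced by this stress, -0.13 ± 0.09. Both were below 0 in all 4 mice.

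Of the disulfide and prolyl isomerases 11 of 19 were above 0, with a median of 0.04 and medians of 0.00, 0.15, -0.05 and 0.00 in mice 1 to 4. The ends were Fkbp14 (0.38 ± 0.57, SD, n = 4), Fkbp2 (0.26 ± 0.33), Erp44 (-0.38 ± 0.70) and Pdia2 (-0.10 ± 0.16), and the repeats of Erp44 differed by an SD of 1.61. Degradation genes were above 0 in 13 of 19 (median 0.04). Marchf6, a ubiquitin ligase of the endoplasmic reticulum, had 0.30 ± 0.14 and Vcp, the segregase that draws substrates out of the membrane, 0.15 ± 0.19, while Derl3 had -0.17 ± 0.20 and Ube2j2 -0.09 ± 0.09.

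Translocation, signal cleavage and glycosylation genes were above 0 in 27 of 36, with a median of 0.06. Sec61a1, the channel of the translocon, had 0.30 ± 0.18 (SD, n = 4), and its repeats differed by an SD of 0.89. Spcs2 and Srp19 were lowest with -0.14 ± 0.06 and -0.10 ± 0.06, and SDs of 0.28 and 0.23 between repeats. Spcs1, a subunit of the signal peptidase, had the highest mean (0.48 ± 0.56), from -1.74 where the mutant was in Cy5 and 2.70 where it was in Cy3. Genes of the route to the Golgi were above 0 in 16 of 20 (median 0.07), from Copb2 (0.33 ± 0.32) and Copa (0.19 ± 0.10), of the COPI coat, to Surf4 (-0.15 ± 0.42) and Kdelr3 (-0.22 ± 0.63). The repeats of Surf4 and Kdelr3 differed by SDs of 0.60 and 0.88, and those of Copb2 and Copa by 0.23 each. Medians of the genes of this route in mice 1 to 4 were 0.07, 0.17, 0.03 and 0.08.

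Targets of ATF4 and the integrated stress response were above 0 in 12 of 28 and below in 16, with a median of -0.01 and medians of 0.02, -0.08, -0.07 and 0.00 in mice 1 to 4. Vegfa, the endothelial growth factor, had 0.21 ± 0.12 (SD, n = 4) and Cth, an enzyme of cysteine synthesis, -0.27 ± 0.22. Asns, the asparagine synthetase, had 0.23 ± 0.40, from -0.66 with the mutant in Cy5 and 1.13 on the other arrays, and Gars, a tRNA synthetase, had -0.22 ± 0.50 with an SD of 1.53 between repeats. The cytosolic and mitochondrial heat shock genes, which are no part of the 10, were all below 0 (9 of 9, median -0.39), from Hspa1a (-1.25 ± 0.40) and Dnaja1 (-0.78 ± 0.18) to Hspd1 (-0.14 ± 0.41) and Hspe1 (-0.08 ± 0.35). Of these 9, 6 had an unadjusted p under 0.05 in limma, against 9.04% of all rows, and the smallest adjusted p was 0.426. Their medians in mice 1 to 4 were -0.64, -0.43, -0.59 and -0.17, so mouse 2, high for the genes of the endoplasmic reticulum, did not have the highest median here. By gene, mouse 2 was the highest for 3 of the 9, Hspd1 and Hspe1 among them, and mouse 4 for 5.

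**Figure D5:**
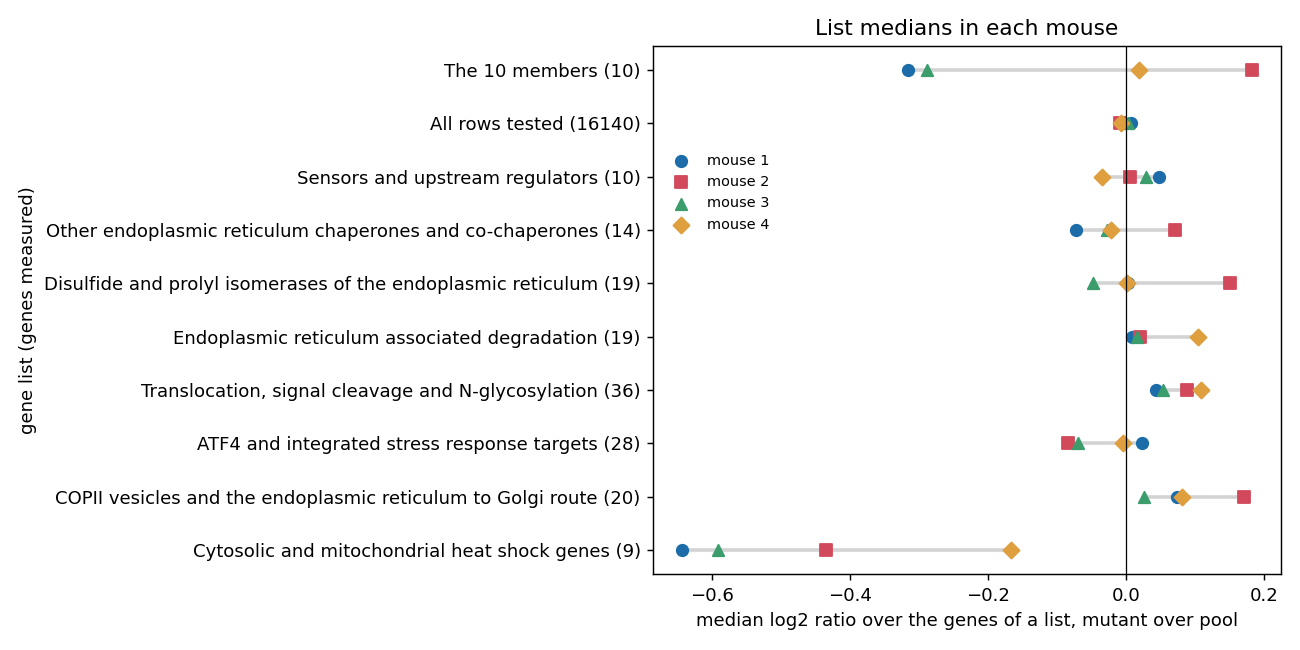
Median log2 ratio of mutant over pool (horizontal axis) in each of the 4 mice for the 10 genes, all rows tested and the 8 pathway lists (vertical axis, with the number of genes measured). The median of the 10 genes spreads from -0.32 in mouse 1 to 0.18 in mouse 2, and the median of the heat shock genes lies below 0 in all 4 mice.

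Other tested genes with an ERSE in the same window had mixed values. There were 10 of them outside the list, Zfp57, Derl3, Pan2, Alg12, Pdia6, Ero1b, Hnrnpa3, Acacb, Canx and Acnat2, with 5 means above 0 and 5 below and medians of -0.02, 0.15, 0.04 and -0.08 in mice 1 to 4. Limma called 0 of the 10 between mice. Pdia6, a disulfide isomerase, had -0.23, 0.31, -0.18 and 0.08, in the order of Creld2. Alg12, a mannosyltransferase of N-glycosylation, begins on the other strand 328 bases from the start of Creld2, and the ERSE printed above for Creld2 (match at chr15:88819520-88819538) lies between their starts and counts for both. Chosen for that shared site after its values were seen, Alg12 had 0.14, -0.27, 0.22 and -0.11 in mice 1 to 4, the opposite sign to Creld2 in each. However, its repeat arrays differed by an SD of 0.27, against 0.22 between its mice, and the F-test of limma did not call it (adjusted p = 0.595).

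Markers of kidney and other cells moved between the mice as well. Medians in mice 1 to 4 were -0.07, 0.28, 0.10 and 0.26 for the proximal tubule (7 of 10 markers measured) and 0.08, 0.45, 0.05 and 0.24 for the thick ascending limb (2 of 4). Mouse 2 had the highest median in both, and also the highest of the macrophage, collecting duct and podocyte values below. By marker, mouse 2 was the highest for only 1 of the 4 macrophage markers, and mouse 4 for 2. Of the 2 collecting duct markers, 1 was highest in mouse 2 and 1 in mouse 4. Of the 7 proximal tubule markers, mouse 2 was the highest for 4, and it was the lowest for Slc34a1 (-0.27). The 2 limb markers differed: Slc12a1 had 0.39, 0.91, 0.49 and 0.45, and Umod had -0.235, -0.01, -0.40 and 0.03. For the adrenal cortex (3 of 5) the medians were 0.20, -0.17, 0.46 and -0.16. Its 3 markers differed: Star had 0.20, -0.75, 0.64 and -0.04, Cyp11a1 had -0.25, -0.17, 0.12 and -0.29, and Cyp21a1 had 0.98, -0.01, 0.46 and -0.16 with an SD of 1.41 between repeats. Limma called Miox, of the proximal tubule (adjusted p = 0.033), and Star, of the adrenal cortex (0.009), between mice. Macrophage markers (4 of 6) had -0.06, 0.09, -0.02 and 0.05, red blood cell markers (2 of 4) -0.33, -0.29, -0.22 and 0.00, adipocyte markers (3 of 5) 0.09, 0.07, 0.13 and 0.09, and collecting duct markers (2 of 5) 0.16, 0.40, 0.05 and 0.24. Podocytes and B cells had 1 marker measured each, with 0.25, 0.40, -0.08 and 0.34 and with 0.07, 0.07, -0.27 and -0.06. The part of any of these cells in the values of the 10 genes was not tested.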

How the data were processed

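Kidney RNA of 4 mice labelled MFP2-/- was hybridised against 1 wild-type pool on 16 arrays with indirect Cy3 and Cy5 labelling of 20 µg of total RNA, per the labels' protocols. The authors deposited log2 ratios per probe; with normalisation, background correction, log base and direction not given in the sources used here, base and direction were inferred. No intensities were used, so depth and signal over background are unknown. Probes were named from the platform annotation and updated through RefSeq (GRCm38.p6): 14030 of 20355 had 1 symbol, 5 several and 6320 none.

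Values over 10 in size were treated as missing, and arrays were centred on their medians. A mouse's value was the mean of its orientation means. Probes needed both orientations in 3 mice (20187 kept), and probes of a gene were averaged. Limma 3.58.1 in R 4.3.3 tested the mean of the mice against 0, and mice and dye in a fit of all arrays (random block with statmod 1.5.0), with Benjamini-Hochberg adjustment over all rows. Differences between mice then rest on the spread of arrays, which is technical, and p-values against 0 on that of 4 mice. Scripts were tested on simulated data. The members, lists and rules were chosen with earlier results of these data known. Named were all members, the 2 highest and 2 lowest genes of each pathway list, and the 6 genes most correlated with the members' median and with Creld2.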

Additional observations from a re-analysis of the deposited data

Results flagged for a closer look

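Among 50 sets of values for 4 mice (the 10 genes, their median, the probes of those with several, and the named pathway genes), 2 had a mouse far from the other 3. Bak1 had 0.61 in mouse 2, with a gap to the next mouse of 0.913 of the whole range, and Hspa1a had -0.67 in mouse 4, with a gap of 0.846. Both exceed Dixon's critical value for 4 samples, and chance flags about 1 in 20 groups. None of the 10 endoplasmic reticulum stress genes was among them.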

How the results depend on the processing

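The alternatives covered centring, scaling, single probes, missing values, medians, single orientations and repeats, the random block, extreme spots, the reading as Cy5 over Cy3 and each mouse left out; the setting with mice 1 and 2 alone was added after the data were seen. For mutant over pool, 3 rows were called with the mutant in Cy5 only, 1 with it in Cy3 only, 221 with the random block and 12 read as Cy5 over Cy3, and 0 under the others, including each mouse left out. The median of the 10 genes was 0.13 read as Cy5 over Cy3 and ran from -0.19 to -0.01 without a mouse. Between mice, the 30 rows became 16 when scaled by median absolute deviation, 48 with each probe on its own, 51 with values on all 16 arrays, 0 in repeat 1, 0 in repeat 2, 2 read as Cy5 over Cy3, 0 in mice 1 and 2 and 5 to 13 without a mouse; fewer arrays leave less power. The 2 genes called became 1 when scaled, 0 in either repeat, 0 read as Cy5 over Cy3, 0 in mice 1 and 2 and 0 to 1 without a mouse. For dye, the 1332 rows became 2740 without centring, 0 in repeat 1, 7 in repeat 2 and 44 to 2701 without a mouse. Where no cause is given, the cause was not tested. No paired analysis was possible because there is 1 group of mice against 1 pool.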
